A study of Mus musculus with 87 samples.

Results

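Mouse embryonic stem cells (ESC) carrying a constitutive exon 4 of Suz12 (CSex4) were compared with wild-type cells (WT) by polyA RNA-seq, in 2 CSex4 and 3 WT samples. The comparison covers the 14633 genes, of 26171 gene symbols listed, whose mean over the 5 libraries (the baseMean of the authors' deposited table) was at least 10 reads after scaling for depth. The 5 samples belong to a series of 87, which compares the long and short splice forms of Suz12 in ESC and in neuronal precursors (NP). Both groups were the ESC line 129-B13, grown in 20% serum with LIF, a cytokine that holds ESC undifferentiated. WT carried no named change. CSex4 cells were WT cells in which exon 4 was made constitutive, so that the long form is the one the allele is built to give. The labels name neither the editing method nor the number of clones, and they do not say whether replicates were separate cultures, so that the p-values measure the spread between these samples, which may be technical.

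Suz12 is a core subunit of Polycomb repressive complex PRC2, together with Eed and the methyltransferases Ezh1 and Ezh2. PRC2 methylates histone H3 at lysine 27 (H3K27me3), a mark that keeps developmental regulators silent. In ESC it lies mostly on CpG-rich promoters of such genes, among them factors of the primitive streak (the cells that form mesoderm and endoderm), trophoblast and neural lineages. The accessory subunits, such as Jarid2, Aebp2, Mtf2, Phf1, Phf19 and Epop, bind to Suz12 and define PRC2 variants.

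The libraries held 27355670 to 32753922 reads. They are called WT A, B and C and CSex4 A and B here, because the deposited means do not say which replicate number of the labels each one is. At a mean of at least 100 scaled reads the authors' log2 fold change was close to the mean of the log2 ratios of the pairs CSex4 A to WT A and CSex4 B to WT B (median absolute difference 0.000202), to which WT C adds no partner. It can depart from that mean in genes with few reads, such as Enpep, with -5.67 beside pair ratios of 0.09 and -8.66. The mean of the pair ratios is the same with the pairs crossed, so the pairing was taken from the deposited standard errors. In genes with many reads, these had a rank correlation of 0.667 with the size of the difference between the pair ratios. With the pairs crossed that correlation was 0.016. All values below are scaled reads, that is reads of a library divided by the authors' size factor. Medians of gene lists are medians of the log2 fold changes in the authors' deposited table, unless called a log2 ratio of scaled reads. Scaled reads are not divided by gene length, so levels are compared between libraries and not between genes. ESC markers were abundant in all 5 libraries: Pou5f1, the central pluripotency factor, had 28427, 29080.3 and 25274 scaled reads in WT A, B and C and 25619 and 17619 in CSex4 A and B. WT B stood apart from the other WT libraries in genes of the primitive endoderm, the extraembryonic layer that forms beside the pluripotent cells. Gata4, a defining factor of that layer, was at 59.1, 994 and 53.9 scaled reads in WT A, B and C and at 70.4 and 65.7 in CSex4 A and B. The standard deviation of the log2 difference over genes with a mean of at least 100 scaled reads was 0.31 between WT A and WT C, 0.63 between WT A and WT B, and 0.50 between the CSex4 libraries. It was 0.32 between the libraries of pair A and 0.96 between those of pair B.

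Suz12 itself did not pass the test. Its 5659.5, 8603 and 4402 scaled reads in WT A, B and C and 6971 and 7196 in CSex4 A and B overlapped between the groups, and the authors' deposited table gives a log2 fold change of 0.02 ± 0.31 (standard error, SE) with an adjusted p of 0.995. Values per gene cannot show whether exon 4 is in the transcript, so they do not check the label. The other 13 PRC2 genes measured did not pass either, and none of the 14 had an unadjusted p under 0.05. The median log2 fold change of the 14 in the authors' deposited table was -0.31, and their median log2 ratio went from -0.25 to -0.13 without CSex4 B. Ezh2, the main methyltransferase in ESC, had 6251, 6271 and 7466 scaled reads in WT A, B and C and 5797 and 4361 in CSex4 A and B, and Eed had 6957, 7544 and 6208 and 6160.4 and 5925. Both CSex4 libraries lay below all 3 WT libraries for Ezh2 and Eed, as for 5 of the 14 PRC2 genes and for 22.4% of all genes tested. Of the 19 genes of PRC1, the Polycomb complex that binds H3K27me3 and ubiquitinates histone H2A, 0 were called by the DESeq2 test of the authors' deposited table, and 2 had an unadjusted p under 0.05. Phc1, a PRC1 subunit, was at 13846, 26669 and 14671 scaled reads in WT A, B and C and 13178 and 9730.4 in CSex4 A and B, and Phc2, its paralog, at 901, 674 and 962 scaled reads in WT A, B and C and 1392 and 1589 in CSex4 A and B. For Phc1 both CSex4 libraries were the lowest and for Phc2 the highest of the 5.

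In CSex4 cells more genes rose than fell. A gene was called where the adjusted p of the authors' deposited table was under 0.05. By that rule 237 of the 14633 genes were higher (1.62%) and 96 were lower (0.656%), or 333 in all (2.28%). The called rises had a median log2 fold change of 2.03 (from 1.16 to 4.71) in the authors' deposited table, and the falls one of -1.60. Over all genes tested the median was -0.00 and 49.5% of the values were positive. The largest adjusted p among called genes was 0.0496 and the smallest above the threshold was 0.0501. In 237 of 237 rises both CSex4 libraries lay above all 3 WT libraries, which held for 20.2% of all genes tested. In 90 of 96 falls both CSex4 libraries lay below all 3 WT libraries, beside the 22.4% of all genes. The 6 exceptions were Nostrin, Enpep, Nxf7, Bnip3, Aqp8 and Inhbb, chosen by this overlap after their values were seen. In Nostrin, for example, the 0.953, 264 and 0.93 scaled reads of WT A, B and C stood beside 0 and 1.96 in CSex4 A and B, so that WT B alone was high.

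**Figure D1:**
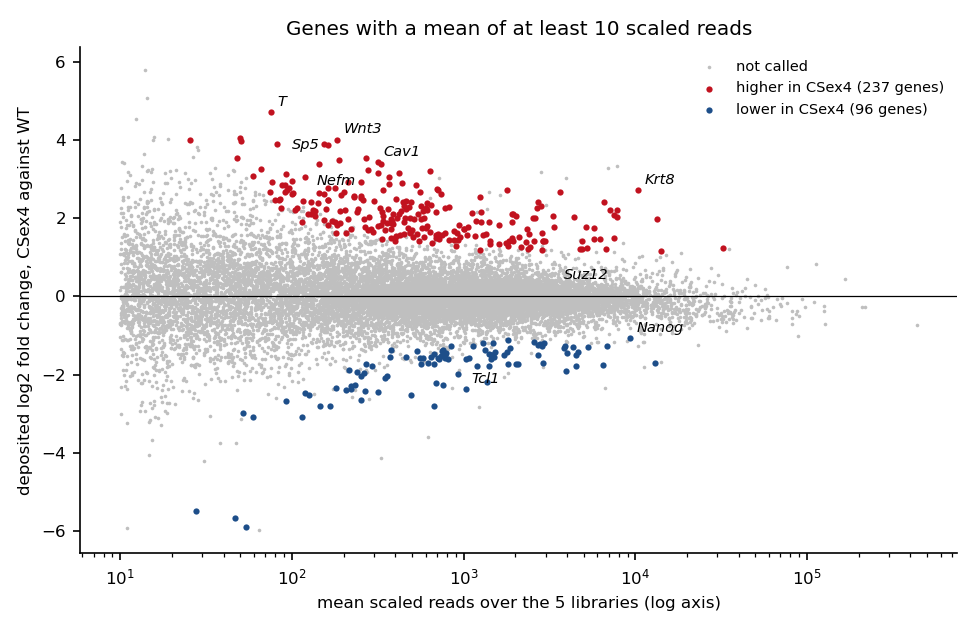
Deposited log2 fold change of CSex4 against WT in ESC (vertical axis) by mean scaled reads over the 5 libraries (horizontal log axis), 1 point for each of the 14633 genes. Red points are the 237 called higher, blue points the 96 called lower, and grey points are not called; Suz12 lies near 0.

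The size of the called changes differed between the library pairs. The median log2 ratio of the 237 rises was 1.04 in pair A and 3.01 in pair B, and that of the 96 falls was -0.75 and -2.64. The ratio was further from 0 in pair B than in pair A for 237 of 237 rises and 94 of 96 falls. WT B was the lowest WT library in 197 rises and the highest in 88 falls, beside 40.9% and 41% of all genes. With all libraries, 236 rises and 93 falls had a log2 ratio of the group means of at least 1 in size. Without WT B and CSex4 B the counts were 121 and 50. Without WT B, no rise and 2 falls (Nostrin and Aqp8) changed direction. A limma fit on the recovered reads called no gene of the 14633 at an adjusted p under 0.05, with or without the pairs as a block (1570 and 2956 genes at an unadjusted p under 0.05). All 333 genes called in the authors' deposited table had the same direction in both limma fits. Because these fits use the same reads, that direction was largely fixed in advance, and nothing is read from it.

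**Figure D2:**
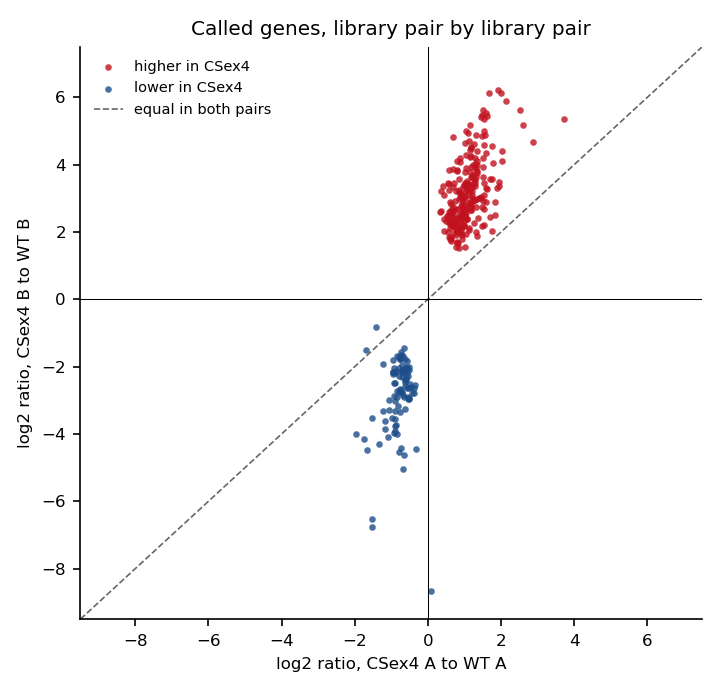
Log2 ratio of scaled reads in pair B (CSex4 B to WT B, vertical axis) against pair A (CSex4 A to WT A, horizontal axis) for the 333 called genes, red for higher and blue for lower in CSex4. All red points lie above the dashed line of equal ratios, and 94 of 96 blue points are further from 0 in pair B.

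Genes of the primitive streak and of Wnt signalling were among the largest rises. Wnt3, a secreted Wnt ligand needed to form the streak, Sp5, a direct target of the Wnt effector beta-catenin, and T (Brachyury), the defining streak factor, each lie at a Suz12 region and at an H3K27me3 region of the authors' ChIP-seq lists. Their 250 bases before the transcription start, from RefSeq on build GRCm38.p6, are shown with Tcl1, a naive pluripotency gene that fell and lies at neither kind of region. The CpG sites are in capitals.
Wnt3: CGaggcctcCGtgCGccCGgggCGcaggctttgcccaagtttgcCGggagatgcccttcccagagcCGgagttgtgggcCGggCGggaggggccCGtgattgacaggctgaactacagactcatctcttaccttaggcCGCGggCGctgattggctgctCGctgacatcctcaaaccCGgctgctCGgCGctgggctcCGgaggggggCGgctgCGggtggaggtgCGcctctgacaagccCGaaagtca
T: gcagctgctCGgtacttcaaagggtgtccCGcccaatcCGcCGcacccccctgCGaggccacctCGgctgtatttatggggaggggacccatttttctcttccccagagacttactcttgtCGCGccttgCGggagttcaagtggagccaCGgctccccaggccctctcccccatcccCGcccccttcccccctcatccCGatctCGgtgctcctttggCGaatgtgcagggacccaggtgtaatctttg
Sp5: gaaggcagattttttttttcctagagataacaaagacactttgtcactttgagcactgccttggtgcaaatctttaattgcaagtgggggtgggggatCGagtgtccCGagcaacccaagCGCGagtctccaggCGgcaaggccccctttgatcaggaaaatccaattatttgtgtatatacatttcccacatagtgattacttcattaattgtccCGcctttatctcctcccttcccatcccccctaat
Tcl1: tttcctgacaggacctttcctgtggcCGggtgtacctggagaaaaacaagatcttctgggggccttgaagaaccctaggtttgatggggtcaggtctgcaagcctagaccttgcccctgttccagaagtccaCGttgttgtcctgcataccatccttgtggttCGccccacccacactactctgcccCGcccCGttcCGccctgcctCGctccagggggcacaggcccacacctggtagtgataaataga
The Wnt3 stretch (chr11:103773925-103774174, plus strand) has 22 CpG sites, and 14.8% of the 32851 RefSeq promoters have as many in the same 250 bases. That of T (chr17:8434173-8434422, plus strand) has 14, which 29.4% of promoters reach. Sp5 (chr2:70474673-70474922, plus strand) has 6 sites, the median of all promoters, and Tcl1 (chr12:105222738-105222987, minus strand) has 7.

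Wnt3 had 42.0, 10.9 and 54.8 scaled reads in WT A, B and C and 244 and 562 in CSex4 A and B. Both CSex4 libraries were above every WT library, and CSex4 B was the higher of them. The authors' deposited table gives a log2 fold change of 4.01 ± 0.67 (SE, adjusted p = 5.63e-06). For T the values were 4.77, 6.53 and 10.2 scaled reads in WT A, B and C and 69.3 and 289 in CSex4 A and B, so a gene near the low end of detection in WT was measured in both CSex4 libraries. Its log2 fold change in the authors' deposited table, 4.71 ± 0.82 (SE, adjusted p = 1.8e-05), was the largest among the rises. Sp5 had 29.6, 14.1 and 49.3 scaled reads in WT A, B and C and 183 and 535 in CSex4 A and B, again without overlap, and 3.88 ± 0.65 (SE, adjusted p = 5.63e-06) in the authors' deposited table. Kdr, the VEGF receptor of early mesoderm and endothelium, had 22.9, 33.7 and 26.0 scaled reads in WT A, B and C and 86.1 and 340.3 in CSex4 A and B. Its paralog Flt1, which also binds VEGF, had 142, 167 and 189.6 scaled reads in WT A, B and C and 545 and 1726 in CSex4 A and B. The log2 fold changes of Kdr and Flt1 in the authors' deposited table were 2.64 ± 0.65 and 2.66 ± 0.43 (SE), with adjusted p of 0.00575 and 5.63e-06.

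Of the 19 streak and mesoderm genes listed, 11 reached the mean of 10 scaled reads. Of these, 3 were called higher (T, Wnt3 and Kdr) and 0 lower, with a median of 1.79 in the authors' deposited table. Their median log2 ratio was 1.33 with all libraries, 0.95 without WT B and 1.34 without CSex4 B. Eomes, a factor of streak endoderm and of trophoblast, had 131, 92.5 and 111 scaled reads in WT A, B and C and 116 and 350.1 in CSex4 A and B and overlapped between the groups. Cdx1 and Cdx4, posterior homeobox factors, had 24.8, 20.7 and 19.5 and 24.8, 17.4 and 25.1 scaled reads in WT A, B and C and 55.7 and 165 and 79.8 and 64.7 in CSex4 A and B. Neither passed the test, although the groups did not overlap. Of 18 Wnt pathway genes, 3 were called higher (Sp5, Wnt4 and Wnt6) and 0 lower, and their median of 0.07 was close to that of all genes. Wnt4 and Wnt6 are ligands, with 126, 59.9 and 149.7 and 16.2, 9.79 and 15.8 scaled reads in the WT libraries and 320.4 and 1040.4 and 68.3 and 219 in the CSex4 libraries. Axin2, a feedback inhibitor that is a standard Wnt readout, had 182, 163 and 159 scaled reads in WT A, B and C and 309 and 697 in CSex4 A and B, with an adjusted p of 0.0755 in the authors' deposited table. Ctnnb1, which encodes beta-catenin, was at 26176, 25988 and 26156 and 23855 and 20541. Wls, the carrier that brings Wnt ligands to the cell surface, was called higher, with 375, 499.5 and 572 scaled reads in WT A, B and C and 941 and 2005 in CSex4 A and B and a log2 fold change of 1.67 ± 0.36 (SE, adjusted p = 0.000824) in the authors' deposited table.

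**Figure D3:**
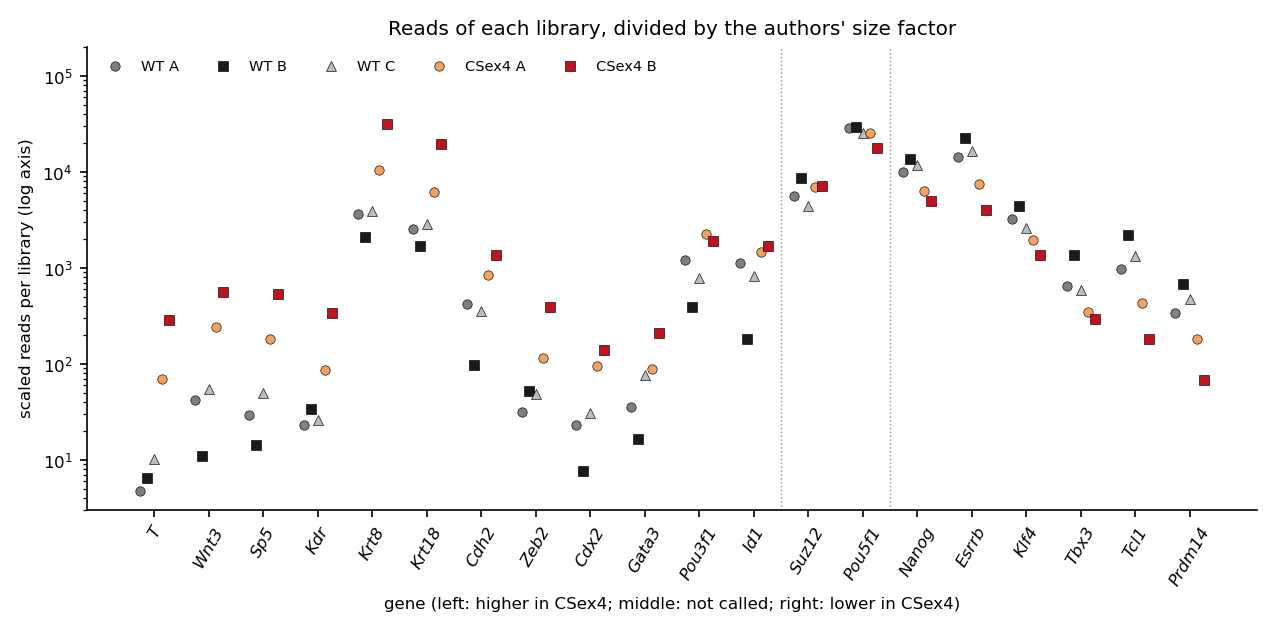
Scaled reads of each library (vertical log axis) for 20 genes, with WT libraries in grey and black and CSex4 libraries in orange and red; circles are pair A, squares pair B and triangles WT C. The 12 genes at the left are higher in both CSex4 libraries than in all WT libraries, Suz12 and Pou5f1 in the middle are not called, and the 6 at the right are lower in both.

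Krt8 and Krt18, the keratin pair that forms the filaments of simple epithelia, rose. They had 3667, 2075 and 3879.8 scaled reads in WT A, B and C and 10534 and 31553 in CSex4 A and B and 2548, 1677 and 2885 scaled reads in WT A, B and C and 6243 and 19436 in CSex4 A and B. No WT library reached either CSex4 library, and CSex4 B was the highest for both genes. Their log2 fold changes in the authors' deposited table were 2.72 ± 0.45 and 2.41 ± 0.44 (SE, adjusted p = 5.63e-06 and 5.54e-05). Of 8 such keratins, 2 were called higher, and the list median was 2.19. Without CSex4 B their median log2 ratio was 1.33. Krt19 had 705, 189 and 1059.7 scaled reads in WT A, B and C and 1559 and 3487 in CSex4 A and B and a log2 fold change of 2.67 ± 1.20 (SE) in the authors' deposited table, which with that error did not pass. Among 18 junction genes, Dsp and Dsc2, both of desmosomes, were called higher and Tjp3, of tight junctions, lower, with a list median of 0.21. Dsp had 941, 718 and 1048 scaled reads in WT A, B and C and 2243 and 8571 in CSex4 A and B. Cdh1, the epithelial cadherin, had 24402, 15408 and 22521 scaled reads in WT A, B and C and 25846 and 27891 in CSex4 A and B, and Epcam, another epithelial adhesion protein, 8281, 8200.0 and 8641 scaled reads in WT A, B and C and 7841 and 5473 in CSex4 A and B. Neither Cdh1 nor Epcam passed the test.

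Among the mesenchymal genes listed the calls were all rises. Of 17 mesenchymal genes, 6 were called higher, among them Cdh2, Zeb2, Axl and Cd44, and 0 lower, with a median of 2.22. Their median log2 ratio was 1.86 with all libraries, 1.5 without WT B and 1.21 without CSex4 B. Cdh2, the cadherin of mesoderm and neural tissue, had 423, 97.9 and 354 scaled reads in WT A, B and C and 853 and 1348 in CSex4 A and B and 2.38 ± 0.53 (SE, adjusted p = 0.00152) in the authors' deposited table. Zeb2, a repressor of epithelial genes, had 31.5, 52.2 and 48.3 scaled reads in WT A, B and C and 115 and 395 in CSex4 A and B. In both, the CSex4 libraries lay above every WT library. Snai1, another such repressor, had 55.3, 136 and 45.5 scaled reads in WT A, B and C and 79.8 and 114 in CSex4 A and B, and its groups overlapped. Vim, the mesenchymal intermediate filament, had 1902, 562 and 1347 scaled reads in WT A, B and C and 3621 and 7634 in CSex4 A and B. Its log2 fold change of 2.35 ± 1.14 (SE) in the authors' deposited table did not pass, with an adjusted p of 0.391. Fn1, fibronectin, had 21221, 36081 and 24698 scaled reads in WT A, B and C and 19739.8 and 30241 in CSex4 A and B and did not pass either.

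Targets of SRF and YAP, which link actin assembly and cell contact to transcription, held the largest share of calls among the lists, 11 of 20 higher and 0 lower. Their median was 1.74, and the median log2 ratio was 1.46 without WT B and 0.84 without CSex4 B. In 19 of 20 both CSex4 libraries were above all WT libraries, beside 20.2% of all genes. Tpm1, tropomyosin, had 7556, 4074 and 7948 scaled reads in WT A, B and C and 14799 and 32792 in CSex4 A and B. Ccn1, a secreted YAP target, had 1957, 1392 and 2927 scaled reads in WT A, B and C and 3771 and 12025 in CSex4 A and B. Zyx, a focal adhesion protein, had 1330.0, 1013 and 1307 scaled reads in WT A, B and C and 2819 and 5269 in CSex4 A and B. In these 3 genes CSex4 B held the most reads, and CSex4 A was above the WT libraries. Their log2 fold changes in the authors' deposited table were 1.99 ± 0.42, 2.03 ± 0.44 and 1.73 ± 0.37 (SE), with adjusted p of 0.000653, 0.000824 and 0.000824. Flna, filamin, had 26346, 17277 and 26660.5 scaled reads in WT A, B and C and 34658 and 71639 in CSex4 A and B, with an adjusted p of 0.058 in the authors' deposited table.

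Fibroblast markers were measured because ESC are often grown on feeder cells, although the labels name none. Of 15, 9 reached the mean of 10 scaled reads, 4 were called higher (Col1a1, Col1a2, Col3a1 and Tnc) and 0 lower. In 9 of 9 both CSex4 libraries lay above all 3 WT libraries, beside 20.2% of all genes. The median of the 9 was 1.62. Their summed level was 909 to 1293 scaled reads in the WT libraries and 2288 and 3509 in CSex4 A and B. Lum, Dcn, Postn, Prrx1, Fap and Col6a3, which define fibroblasts, stayed under the mean of 10. Thy1 had 61.0, 71.8 and 58.6 scaled reads in WT A, B and C and 78.8 and 94.1 in CSex4 A and B. The part of fibroblasts in the mesenchymal and collagen values was not tested. In bulk samples fewer cells of a type and less RNA per cell cannot be told apart. Of 17 collagen and basement membrane genes, 4 were called higher and 0 lower, with a median of 0.15, and the fibrillar collagens Col1a1, Col1a2, Col3a1 and Col5a1 made up the 4. Col1a1 had 283, 87.1 and 176 scaled reads in WT A, B and C and 667 and 1101 in CSex4 A and B. Col4a1, a basement membrane collagen that primitive endoderm secretes, had 1526, 18587 and 1415 scaled reads in WT A, B and C and 2938 and 7775 in CSex4 A and B, so that WT B exceeded both CSex4 libraries and these exceeded the other WT libraries. The median log2 ratio of the 17 was 0.16 with all libraries, 0.84 without WT B and -0.03 without CSex4 B.

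**Figure D4:**
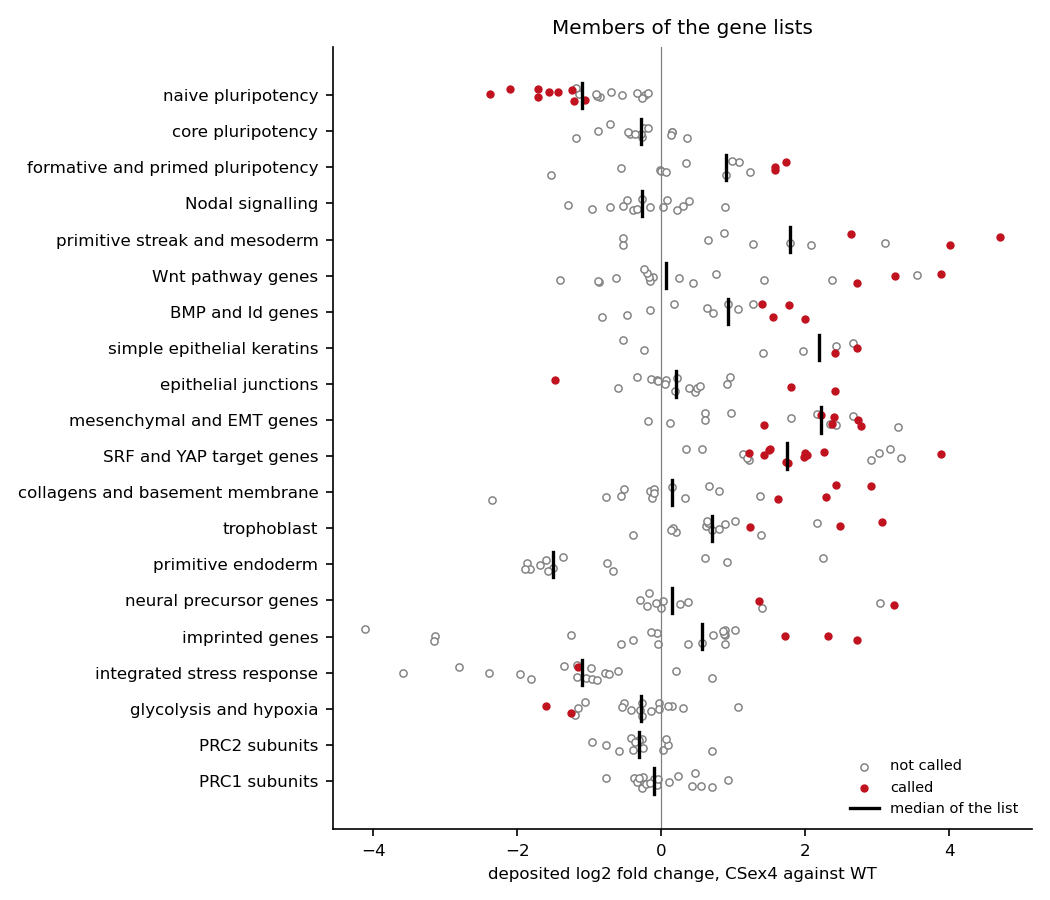
Deposited log2 fold changes (horizontal axis) of the measured members of 20 gene lists (rows), filled red where called and open where not, with the list median as a black bar. Called SRF and YAP, mesenchymal, keratin, streak and BMP genes lie to the right of 0, and called naive pluripotency genes to the left.

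Of 20 naive pluripotency genes, which mark the state of the early epiblast that LIF sustains, 9 fell and 0 rose (Tcl1, Prdm14, Nr0b1, Esrrb, Tbx3, Pecam1, Klf4, Klf2 and Nanog), and the median was -1.10. In 17 of 20 both CSex4 libraries lay below all WT libraries, beside 22.4% of all genes. For the list the median log2 ratio was -1.04 with all libraries, -0.84 without WT B and -0.79 without CSex4 B. Nanog had 9992, 13616 and 11790.0 scaled reads in WT A, B and C and 6318 and 4968 in CSex4 A and B. Esrrb, an orphan nuclear receptor of the naive network, had 14329.9, 22379 and 16670.0 scaled reads in WT A, B and C and 7538 and 3988 in CSex4 A and B. Klf4 had 3268, 4441 and 2592 scaled reads in WT A, B and C and 1945 and 1352 in CSex4 A and B. In all 3 the groups did not overlap, and WT B was the highest library. Their log2 fold changes in the authors' deposited table were -1.06 ± 0.33, -1.71 ± 0.38 and -1.23 ± 0.35 (SE), with adjusted p of 0.048, 0.00152 and 0.0227. Prdm14, which restrains FGF signalling and DNA methylation, had 336, 680.2 and 470.3 scaled reads in WT A, B and C and 181 and 67.7 in CSex4 A and B. Tbx3, a T-box factor, had 648, 1349 and 590.2 scaled reads in WT A, B and C and 347 and 293 in CSex4 A and B. Zfp42 (Rex1), the usual naive reporter, had 9391, 15086 and 9174 scaled reads in WT A, B and C and 6828 and 4299 in CSex4 A and B, with no overlap and an adjusted p of 0.0652 in the authors' deposited table. Stat3, the factor through which LIF acts, had 2789.7, 3294 and 2753 scaled reads in WT A, B and C and 2379 and 2436 in CSex4 A and B, also with no overlap, and an adjusted p of 0.821 there.

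Core pluripotency genes did not pass. None of 14 was called by the DESeq2 test of the authors' deposited table, 3 had an unadjusted p under 0.05, and the median was -0.28. Their median log2 ratio, -0.22 with all libraries, was -0.12 without WT B and -0.10 without CSex4 B. Sox2, the partner of Pou5f1, had 9709.6, 11627 and 10730.4 scaled reads in WT A, B and C and 8021 and 5238 in CSex4 A and B, and Lin28a, an RNA-binding protein of stem cells, 19275, 15463 and 18202 scaled reads in WT A, B and C and 21288 and 17331 in CSex4 A and B. Sox2 was lowest in the CSex4 libraries, whereas Lin28a overlapped between the groups. Among formative and primed genes, which come up as the epiblast leaves the naive state, 3 of 13 were called higher and 0 lower, with a median of 0.90. Their median log2 ratio was 0.66 with all libraries and 0.36 without WT B. Pou3f1 (Oct6), a formative POU factor, had 1209, 387 and 785 scaled reads in WT A, B and C and 2238 and 1888 in CSex4 A and B and 1.58 ± 0.39 (SE, adjusted p = 0.00663) in the authors' deposited table. Fst, follistatin, had 142, 91.4 and 92.0 scaled reads in WT A, B and C and 298 and 482 in CSex4 A and B. Sall2, a zinc finger factor, had 584, 115 and 369 scaled reads in WT A, B and C and 887 and 702 in CSex4 A and B. Otx2, also of this list, had 796, 1617 and 949 scaled reads in WT A, B and C and 685 and 222 in CSex4 A and B, and Fgf5 had 143, 19.6 and 85.5 scaled reads in WT A, B and C and 148 and 115 in CSex4 A and B. Otx2 was lowest in CSex4, Fgf5 overlapped, and neither was called. Of 15 Nodal pathway genes 0 were called by the same test (2 at an unadjusted p under 0.05). Nodal, the ligand, had 1818, 1571 and 1634 scaled reads in WT A, B and C and 1906 and 1569 in CSex4 A and B, and Lefty1, its secreted inhibitor, 3347, 2586 and 4762 scaled reads in WT A, B and C and 3171 and 451 in CSex4 A and B. Lefty1 was low in CSex4 B and not in CSex4 A.

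Of 17 trophoblast genes that reached the mean of 10 scaled reads, 3 were called higher (Cdx2, Gata3 and Peg10) and 0 lower, with a median of 0.71. Peg10 already had 27008, 15203 and 21265 scaled reads in WT A, B and C, beside 37043 and 61725 in CSex4 A and B. Over the 17 the median log2 ratio was 0.57 with all libraries, 0.12 without CSex4 B and 0.14 in pair A. Cdx2, the homeobox factor of trophectoderm and of the posterior embryo, had 22.9, 7.62 and 30.7 scaled reads in WT A, B and C and 95.6 and 141 in CSex4 A and B. Gata3, a trophectoderm factor, had 35.3, 16.3 and 76.2 scaled reads in WT A, B and C and 89.3 and 209.8 in CSex4 A and B. The CSex4 libraries did not overlap the WT libraries in either gene, although the highest WT library, WT C, came near CSex4 A for Gata3. Their log2 fold changes in the authors' deposited table were 3.07 ± 0.82 and 2.48 ± 0.74 (SE, adjusted p = 0.0148 and 0.0359). Tfap2c, a trophoblast and germline factor, had 1886, 1929 and 2704 scaled reads in WT A, B and C and 1478 and 1421 in CSex4 A and B, with both CSex4 libraries lowest and no call. Elf5, Tpbpa and Prl3d1, of trophoblast proper, stayed under the mean of 10.

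In neural genes 2 of the 12 measured were called higher, Nefm and Nefl, which encode neurofilaments, with a list median of 0.15 (a median log2 ratio of 0.13 with all libraries and 0.39 without WT B). Nefm had 109.6, 25.0 and 112 scaled reads in WT A, B and C and 319 and 824 in CSex4 A and B and a log2 fold change of 3.23 ± 0.64 (SE) in the authors' deposited table. Sox1 and Pax6, factors of neural progenitors, had 45.8, 69.6 and 30.7 and 73.4, 197 and 153 scaled reads in WT A, B and C and 54.6 and 46.1 and 118 and 129 in CSex4 A and B, with overlap in both. Stmn4, a tubulin-binding protein of neurons named by its rank among the rises, had 50.5, 6.53 and 64.1 scaled reads in WT A, B and C and 223 and 422 in CSex4 A and B. Only 4 of 39 Hox genes reached the mean of 10 scaled reads, and 0 were called (0 at an unadjusted p under 0.05). No primitive endoderm gene was called among 13 (4 at an unadjusted p under 0.05). The median of that list was -1.5. Its median log2 ratio was -1.82 with all libraries and 1.20 without WT B, so its direction turned with that library.

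Among BMP and Id genes, 4 of 13 were called higher (Bmp8b, Id1, Id3 and Id2) and 0 lower, with a median of 0.93. As a median log2 ratio the value was 0.87 with all libraries and 0.05 without CSex4 B. The called Id genes, whose proteins bind bHLH factors and which BMP induces, were lowest in WT B. Id1 had 1132, 179.6 and 833 scaled reads in WT A, B and C and 1449 and 1674 in CSex4 A and B, and Id3 495, 284 and 395 scaled reads in WT A, B and C and 924 and 1329.7 in CSex4 A and B. The CSex4 libraries were highest in both. The log2 ratio of group means of Id1 was 0.67 without WT B. Its log2 fold change in the authors' deposited table was 1.78, a different measure that follows the pairs, so the gap is not due to WT B alone. Bmp8b, a ligand, had 247, 148 and 181 scaled reads in WT A, B and C and 475 and 1228 in CSex4 A and B. Bmp4, the ligand best known in ESC culture, had 360.4, 358 and 242 scaled reads in WT A, B and C and 331 and 940.4 in CSex4 A and B, and its groups overlapped.

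Of 21 imprinted genes measured, 3 were called higher (Nnat, Igf2 and Plagl1) and 0 lower, with a median of 0.57. Nnat, neuronatin, had 696, 399 and 633 scaled reads in WT A, B and C and 2699 and 4498 in CSex4 A and B and the smallest p of all genes, with a log2 fold change of 2.72 ± 0.40 (SE, adjusted p = 1.03e-07) in the authors' deposited table. Igf2, the fetal growth factor, had 1562, 631 and 1661 scaled reads in WT A, B and C and 3792 and 6531 in CSex4 A and B. Plagl1, a zinc finger factor, had 173, 114 and 193 scaled reads in WT A, B and C and 354 and 615 in CSex4 A and B. In these 3 genes every CSex4 value exceeded every WT value. Rian and Meg3, noncoding RNAs of the Dlk1-Dio3 cluster, were high in WT B alone, with 2.86, 1635 and 3.72 scaled reads of Rian in WT A, B and C and 3.15 and 5.88 in CSex4 A and B, and 0, 250.3 and 0 and 3.15 and 0 of Meg3.

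The 12 largest rises with a mean of at least 100 scaled reads were Wnt3, Stmn4, Sp5, Col12a1, Plau, Cav1, Edn1, Tnc, Nefm, Prss23, Tgfb2 and Ptgs2. Col12a1, a collagen that binds fibrils, had 52.4, 22.9 and 30.7 scaled reads in WT A, B and C and 159 and 1089 in CSex4 A and B. Plau, urokinase, had 53.4, 14.1 and 64.1 scaled reads in WT A, B and C and 164 and 640.3 in CSex4 A and B. Cav1, the coat protein of caveolae, had 93.4, 25.0 and 60.4 scaled reads in WT A, B and C and 262 and 1135 in CSex4 A and B. In these 3 genes CSex4 B held the most reads by far, and CSex4 A still exceeded every WT library. Tgfb2, a TGF-beta ligand, had 123, 50.1 and 112 scaled reads in WT A, B and C and 346 and 1466 in CSex4 A and B, and Ptgs2, the inducible cyclooxygenase, 83.9, 32.6 and 77.2 scaled reads in WT A, B and C and 186 and 1208 in CSex4 A and B. The 12 largest falls were Nkx6-3, Rnf157, Ly6g6e, Nxf7, Hrk, Zc3h6, Serpinb6c, Gjb1, Napsa, Cyct, Patl2 and Tcl1. Nkx6-3, a homeobox factor, had 98.2, 357 and 72.5 scaled reads in WT A, B and C and 30.5 and 15.7 in CSex4 A and B. Serpinb6c, a serpin, had 417, 1055 and 762 scaled reads in WT A, B and C and 145 and 91.2 in CSex4 A and B. Gjb1, a connexin of gap junctions, had 139, 207 and 173 scaled reads in WT A, B and C and 62.0 and 13.7 in CSex4 A and B. All 3 were lowest in CSex4 B and highest in WT B. Nxf7, of the nuclear export factor family, had 29.6, 739 and 21.4 scaled reads in WT A, B and C and 16.8 and 31.4 in CSex4 A and B. Its log2 ratio of group means was -0.08 without WT B. The log2 fold change in the authors' deposited table, a different measure that follows the pairs, was -2.80.

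The called rises were more often at PRC2 regions than the genes tested as a whole. The authors deposited 2865 regions for Suz12 and 6882 for H3K27me3 from ChIP-seq, without a direction of change, and a gene was taken to be at a region within 1000 bases of either gene end. A Suz12 region lay at 37.6% of the rises (89 of 237), at 12.5% of the falls (12 of 96) and at 10.6% of all genes (1545 of 14631 with a position). An H3K27me3 region lay at 57.4% of the rises (136), 24.0% of the falls (23) and 21.2% of all genes (3099). No test of these shares was made. Of the 1526 genes at both kinds of region, 5.57% were called higher and 0.721% lower, and of the 11513 at neither 0.843% and 0.625%, beside 1.62% and 0.656% of all genes. The median log2 fold change in the authors' deposited table was 0.42 at both kinds, 0.10 at H3K27me3 regions alone (1573 genes) and -0.05 at neither. At both kinds the median log2 ratio of scaled reads, another measure, was 0.41 without WT B and 0.24 without CSex4 B. Genes at both kinds had fewer reads, a median baseMean of 92.9 against 801 at neither, and its part in the shares was not tested.

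T, Wnt3, Sp5, Kdr, Flt1, Cdx2, Gata3, Wnt4, Wnt6, Id3, Pou3f1, Fst, Dsp, Cdh2, Col5a1, Col12a1 and Wls were called higher and lie at both kinds of region. Krt8, Krt18, Id1, Id2, Igf2, Plagl1, Cav1, Plau and Tnc lie at an H3K27me3 region alone, and Nnat, Zeb2 and Ccn1 at neither. Among the falls, Klf4, Tbx3, Prdm14, Prdm1, Hrk, Egln3 and Nkx6-3 lie at both kinds, and Nanog, Esrrb, Tcl1 and Nr0b1 at neither.

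Other ESC lines of the series were compared with the same WT libraries, so their values are set side by side without a test. KO-L cells carry a full knock-out of Suz12 and a rescue with the long form, KO-S cells the same with the short form, and Deltaex4 cells a deletion of exon 4. For the 12 largest rises the log2 fold changes in the authors' deposited tables were 2.08 to 3.66 in KO-L (10 called higher), -3.36 to 0.97 in KO-S (0 called) and -2.45 to 0.86 in Deltaex4 (0 called). For the 12 largest falls they were -4.26 to -0.45 in KO-L (6 called lower), -1.35 to 2.18 in KO-S (2 called higher and 1 lower) and -1.51 to 0.96 in Deltaex4 (0 called). In the knock-out without rescue they were -2.08 to 1.89 for the rises (4 called higher) and -3.12 to 2.18 for the falls (3 called higher and 2 lower). The share of all genes called in these other comparisons was not worked out, so nothing is read from the counts of calls. In Deltaex4 the adjusted p of the authors' deposited table was 0.999977 for Wnt3, T and Tcl1 alike. Scaled to the library total (RPM), Wnt3 was at 0.366 to 1.85 in the WT libraries, 8.22 and 20.4 in CSex4, 7.88 and 12.4 in KO-L, and 0.627 and 1.01 in Deltaex4. T was at 0.153 to 0.346 in WT, 2.34 and 10.5 in CSex4, 5.82 and 6.13 in KO-L, and 0.0750 and 0.221 in Deltaex4. In the knock-out without rescue T was at 1.58 to 5.33 RPM and was called higher (3.48, adjusted p = 1.14e-07) in the authors' deposited table. Wnt3 was at 0.787 to 4.14 RPM in that knock-out and was not called there (0.67, adjusted p = 0.532). Tcl1, which fell in CSex4 to 6.57 and 14.6 RPM from 31.1 to 74.2 in WT, was at 17.2 and 57.2 in KO-L. In the knock-out without rescue Tcl1 was at 102 to 150 RPM.

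The CSex4 effect was also measured in NP, made from ESC with retinoic acid from day 4 and harvested at day 8. The difference of the 2 log2 fold changes (NP minus ESC, tables that share no library) passed a two-sided z test at a Benjamini-Hochberg adjusted p under 0.05 in 711 of 14304 genes (4.97%). Of the 230 ESC rises tested in NP, 135 passed, all with a smaller value there, and of the 93 ESC falls 63 passed, all with a larger one. These genes were chosen for their ESC value, which the difference contains, so its direction is largely fixed by that choice and nothing is read from it. The median log2 fold change in NP in the authors' deposited table was -0.31 for the ESC rises and 0.54 for the ESC falls. Of the genes called in both, 11 were higher in both, 2 lower in both, 21 higher in ESC and lower in NP, and 31 lower in ESC and higher in NP. Beside these counts, 504 genes were called higher and 189 lower in NP, so the NP calls leaned to rises. The CSex4 NP libraries were unusually alike: their median squared difference was 1.84 times that of counting noise, beside 12.5 to 38.8 times in the other NP groups. If they are 1 culture measured again, the standard errors in NP are too small, which was not tested.

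Nanog in NP had 2701 and 1153 scaled reads in the WT libraries and 12064 and 12359 in the CSex4 libraries, the reverse of its order in ESC. Esrrb had 1997 and 849 and 7077 and 7034, and Nr0b1, a nuclear receptor of the naive network, 70.8 and 28.6 and 594 and 579. In all 3 the CSex4 libraries were the higher ones in NP. General markers of undifferentiated cells moved with them: in the authors' deposited table Pou5f1 had a log2 fold change of 2.50 ± 0.37 (SE, adjusted p = 5.75e-09) in NP, and Dppa5a and L1td1, also of the core pluripotency list, had 2.81 and 2.35 (adjusted p = 1.46e-14 and 6.22e-06). The value was larger in NP than in ESC, by the test of the difference, in 9 of 12 ESC markers and 8 of 14 core pluripotency genes, and smaller in 0 of either. Over all 14304 genes it was larger in 379 and smaller in 332. Nanog and Esrrb are among these markers and were called lower in ESC, a value the difference contains, so nothing is read from their direction. The part of undifferentiated cells in the NP values was not tested. The authors' deposited tables give Nanog a log2 fold change of 2.79 ± 0.35 (SE) in NP and -1.06 ± 0.33 in ESC, a difference of 3.85 (adjusted p = 3.8e-12). Wnt3 in NP had 159.7 and 693 scaled reads in WT and 145 and 142 in CSex4, and Wls 4114 and 6310.2 and 1868 and 1817. Both were lower in the CSex4 NP libraries than in the WT ones, whereas they were higher in ESC. In NP Wls was called in the authors' deposited table (adjusted p = 0.000274) and Wnt3 was not (adjusted p = 0.195), its lower WT library standing near the CSex4 libraries. The difference was -5.23 for Wnt3 and -3.14 for Wls (adjusted p = 4.3e-07 and 6.3e-08). Ptgs2 was among the 11 that were higher in both, with 17.2 and 27.6 scaled reads in WT NP and 209 and 209.9 in CSex4 NP.

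**Figure D5:**
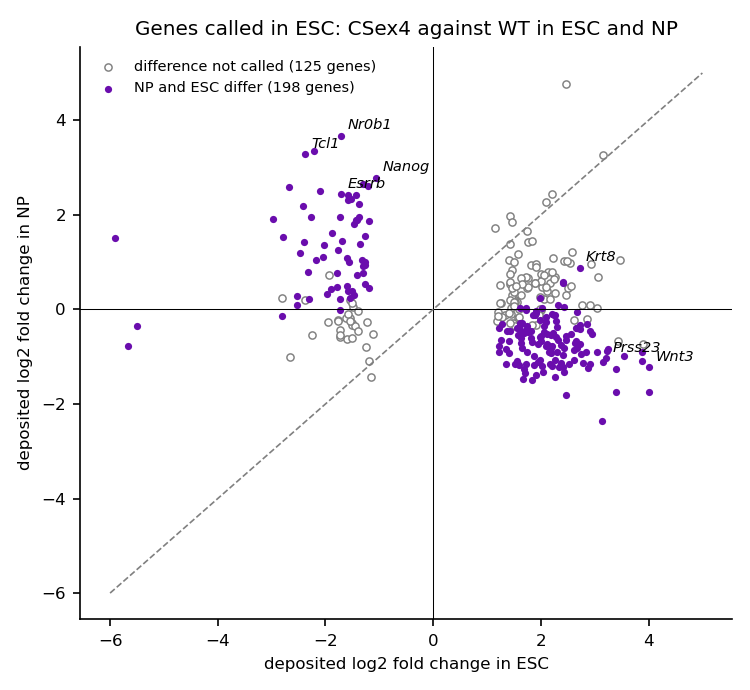
Deposited log2 fold change of CSex4 against WT in NP (vertical axis) and in ESC (horizontal axis) for the 323 genes called in ESC and tested in both, purple where the 2 values differ at an adjusted p under 0.05 and open where not. Most purple points lie off the dashed line of equal values, with Wnt3 at the lower right and Nanog, Esrrb, Tcl1 and Nr0b1 at the upper left.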

How the data were processed

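PolyA RNA-seq libraries of 3 WT and 2 CSex4 ESC samples were used. The submitters' processing notes name TopHat, Bowtie, DESeq2, DiffBind and build mm10, without role or version. The authors' deposited tables give the mean over libraries of counts divided by size factors (baseMean, a signal), a log2 fold change with its standard error, a p-value and a Benjamini-Hochberg adjusted p-value per gene, with the column names of DESeq2, per the file headers. The authors' region lists from DiffBind hold a score per region whose meaning the headers do not give, and only positions were used. Genes with a baseMean of at least 10 were tested, and an adjusted p under 0.05 was a call. An adjusted p was given for 13811 of the 14633 genes.

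Whole reads per library were recovered from the 15 printed digits of baseMean, which tables sharing WT libraries give in different combinations (26171 of 26171 genes, largest relative misfit 8.91e-15). Only solutions within a relative tolerance of 1e-14 were kept, so the small misfit was largely set in advance. In simulated reads for this comparison, 100% of 600 genes were recovered exactly in the WT and CSex4 libraries. The simulation was given the library weights and shared libraries found in the data, so it does not test how those were found. WT libraries are those that the ESC tables share, and CSex4 libraries those in this table alone, per the labelled contrasts. RPM are recovered reads over the library total. Same-lettered libraries did not deviate together (correlations of -0.01 and -0.03), so the pairs are those of the authors' fit only. limma 3.58.1 (trend, R 4.3.3) was fitted to log2(scaled reads + 0.5) with the authors' size factors in place of TMM. Log2 ratios of group means had 0.5 added to the scaled reads.

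Members and gene lists were chosen with earlier results of these data known. Named genes were Suz12, the 12 largest rises and falls with a baseMean of at least 100, the 5 smallest p in each direction, called list members, and up to 4 uncalled members of a list by baseMean. For the NP difference they were the 6 smallest p in each direction. Other uncalled list members, Inhbb, Enpep, Aqp8, Gbp2, Gbp2b and Irgm1 were chosen after their values were seen. Some members of the gene lists are not reported here. Gene ends and promoters came from RefSeq tables (GRCm38.p6), and promoters were found for 78.8% of the genes. Alternatives were stricter and looser thresholds, other minimums, limma settings, left-out libraries and other region distances.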

Additional observations from a re-analysis of the deposited data

Results flagged for a closer look

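The effect of CSex4 differed between NP and ESC, by the z test of the difference, in 711 genes (379 with a larger value in NP and 332 with a smaller one), and 513 of them were not called in ESC. The 6 genes with the smallest p and a larger value in NP were Lefty2 (NP minus ESC, log2: 5.26), Lefty1 (5.87), Nr0b1 (5.39), Tcl1 (5.67), Nanog (3.85) and Esrrb (4.14). The Lefty genes encode inhibitors of Nodal, and the other 4 belong to the naive network. Lefty2 had 172 and 84.7 scaled reads in the WT NP libraries and 2932 and 2769 in the CSex4 NP libraries, and Lefty1 210.5 and 68.9 and 3008 and 2836. Both Lefty genes overlapped between the groups in ESC. The 6 with a smaller value in NP were Wnt3 (-5.23), Prss23 (-4.25), Wls (-3.14), Ccn1 (-3.22), Mest (-2.70) and Fndc3c1 (-3.32). Mest, an imprinted gene, had 9137 and 9315 scaled reads in the WT NP libraries and 2286 and 2387 in the CSex4 NP libraries, beside 3809.9, 1897 and 3482 scaled reads in WT A, B and C and 4861 and 4034 in CSex4 A and B in ESC. No gap test for a single outlying library was run, since it is not defined here for groups of 2 and 3; the values without WT B and without CSex4 B stand beside the ESC results.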

How the results depend on the processing

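The count of 333 called genes was 141 at an adjusted p under 0.01 and 508 under 0.1. It stayed within 1.5 times the count with other baseMean minimums, a log2 fold change of at least 1, or adjustment over the genes tested alone (306 to 333). limma called 0 genes with the replicate block, without it, with total-count scaling and with a pseudocount of 2, and 0 to 33 when 1 library was left out. The 33 came without CSex4 A (30 higher, 3 lower), a fit in which the lone CSex4 library is assumed to vary like the WT libraries, and without WT B the 1 call was Nnat. The genes on the lists called in the authors' deposited table numbered 63, or 34 at an adjusted p under 0.01, 0 in the 4 limma settings and 0 to 3 with 1 library left out. The 90 called genes followed singly kept their direction in the limma fits, which use the same reads, except Aqp8. Aqp8 turned to 0.11 without WT B (-3.99 without WT C, the lowest). With all libraries, and without WT A or WT C, all 90 lost the call, and without WT B 1 kept it. Called genes at Suz12 regions numbered 101 (49 at an adjusted p under 0.01) and those at H3K27me3 regions 159 (80), and other distances kept both within 1.5 times. With transcription starts, which cover 78.8% of the genes and were added after seeing the data, they were 81 and 130. The NP difference held for 711 genes, 377 at an adjusted p under 0.01 and 255 after dividing z by its robust SD of 1.23. Called genes with a log2 ratio of at least 1 fell from 236 to 121 (higher) and from 93 to 50 (lower) without WT B and CSex4 B, also chosen after seeing the data. The cause of these changes was not tested. At this depth, genes under a mean of 10 scaled reads were not tested.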

Other observations

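Genes of the integrated stress response, which ATF4 drives when amino acids are short, showed a median of -1.10 on the log2 scale of the authors' deposited table, with 1 of 18 called lower (Ddit4) and 0 higher. The median log2 ratio was -0.88 with all libraries, -0.53 without WT B, -0.61 without CSex4 B, -0.03 without both and -0.10 in pair A. Chac1, a glutathione-degrading enzyme, had 869, 3408 and 974 scaled reads in WT A, B and C and 809 and 73.5 in CSex4 A and B, and Asns, asparagine synthetase, 10261, 20914 and 11256 scaled reads in WT A, B and C and 8353 and 5119.7 in CSex4 A and B. WT B was the highest library and CSex4 B the lowest for both. In glycolysis and hypoxia genes, 2 of 18 were called lower, with a median of -0.28, and the median log2 ratio was -0.31 with all libraries and -0.08 without CSex4 B. Egln3, a prolyl hydroxylase induced by hypoxia, had 1362, 725 and 1283 scaled reads in WT A, B and C and 425 and 255 in CSex4 A and B, and both CSex4 libraries were lowest. Bnip3, a mitophagy receptor, had 4664, 1977 and 4292 scaled reads in WT A, B and C and 2689 and 598 in CSex4 A and B, and WT B lay below CSex4 A. Of 14 p53 targets, 1 was called higher (Perp, with 1678, 694 and 1387 scaled reads in WT A, B and C and 2865 and 6479 in CSex4 A and B), and Cdkn1a, the cell cycle inhibitor p21, had 831, 885 and 644 scaled reads in WT A, B and C and 1097 and 2108 in CSex4 A and B. Among 17 genes of ERK feedback and the immediate early response, 1 was called higher, Phlda1, with 184, 192 and 242 scaled reads in WT A, B and C and 399 and 1412 in CSex4 A and B. Of 19 germline genes, 1 was called lower, Prdm1 (Blimp1), with 702, 834 and 1273 scaled reads in WT A, B and C and 418 and 124 in CSex4 A and B.

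Lists with 0 calls by the DESeq2 test of the authors' deposited table were those of 17 interferon and MHC class I genes (2 at an unadjusted p under 0.05), 15 cholesterol genes (1), 11 DNA methylation and TET genes (1) and 6 genes of the 2-cell-like state (0). Zscan4c, of the last list, had 18.1, 0 and 19.5 scaled reads in WT A, B and C and 22.1 and 34.3 in CSex4 A and B. Outside the interferon list, the interferon-induced GTPase genes Gbp2, Gbp2b and Irgm1 were called higher by the same DESeq2 test. Their log2 fold changes were 2.42, 2.565 and 1.99 (adjusted p = 0.000724, 0.00152 and 0.0315), and in each the groups did not overlap. The 12 ESC markers had 2 calls, both lower (Nanog and Esrrb), and a summed level of 177333 to 206449 scaled reads in WT and of 150231 and 98268 in CSex4 A and B.

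Genes of the Y chromosome differed within the WT group. Eif2s3y had 57.2, 1925 and 1728 scaled reads in WT A, B and C and 1520.1 and 1592 in CSex4 A and B, and Uty 22.9, 913 and 661 scaled reads in WT A, B and C and 73.5 and 63.7 in CSex4 A and B. WT A was low in both, CSex4 A and B were low in Uty and not in Eif2s3y, and neither gene was called. The sum over primitive endoderm genes was 15038, 49524 and 22581 scaled reads in WT A, B and C and 15690 and 23167 in CSex4 A and B.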
